A study of Mus musculus with 15 samples.

Results

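The chemokine receptors Cxcr3 and Cxcr6 and their ligands were followed in pancreatic islets of NOD mice through the weeks before diabetes. The genes were taken by name from the deposited count table, which held 48709 genes. All 6 were found: the CXCR3 ligands Cxcl9, Cxcl10 and Cxcl11, the receptor Cxcr3, the CXCR6 ligand Cxcl16 and its receptor Cxcr6. The study sequenced polyadenylated RNA from islets of 15 untreated NOD/ShiLtJ females, with 3 mice at each of 5 ages (4, 6, 8, 10 and 12 weeks). Islets were freed by collagenase digestion, separated on a gradient and picked by hand, so each sample held the endocrine cells with whatever immune, vascular, ductal or acinar cells came along. NOD mice develop autoimmune diabetes spontaneously, most often in females, after leukocytes have entered the islets. Each sample was 1 mouse, all mice were of the same strain and sex, and no treated or non-diabetic strain was part of the series.

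Chemokines are secreted proteins that direct the movement of leukocytes carrying the matching receptor. CXCL9, CXCL10 and CXCL11 are induced by interferon gamma in macrophages, endothelium, fibroblasts and islet cells, and all bind CXCR3, which sits mainly on type 1 helper T cells, effector CD8 T cells and NK cells. CXCL16 is made as a membrane protein, is released by the protease ADAM10, and binds CXCR6, a receptor of effector and tissue-resident T cells. In insulitis this axis is known for drawing T cells towards islets, and the T cells in turn release the interferon gamma that induces the ligands.

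Counts summed to between 25407492 and 41616275 per mouse, with a median of 28004882. Values are given as CPM, the reads of a gene scaled to a common library size after TMM normalization between mice, and as the deposited TPM, which also corrects for transcript length and is the only scale used here to compare levels between genes. A value of 3 counts, taken as the floor, corresponded to 0.0754 to 0.128 CPM. The labelled tissue carried its markers in every mouse: the 12 endocrine genes summed to between 151627 and 345422 CPM, and Ins2, an insulin gene, was their most abundant member. All 6 chemokine and receptor genes passed the filter on low counts, as did 16554 of the 48709 genes.

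All 6 genes were higher in islets of 10- and 12-week-old mice than in those of 4- and 6-week-old mice. The receptors rose, with a log2 fold change of 3.87 ± 0.70 (SE) for Cxcr6 and 3.52 ± 0.78 for Cxcr3. The ligands rose by 3.34 ± 1.10 for Cxcl9, 2.80 ± 0.83 for Cxcl10, 2.51 ± 0.77 for Cxcl11 and 2.21 ± 0.41 for Cxcl16. The adjusted p-values in the edgeR quasi-likelihood fit ran from 0.000399 for Cxcr6 to 0.0174 for Cxcl9, so that 6 of 6 members were called higher, where 30.1% of all tested genes were. The order of the members by size of change depended on the scale, since the difference in mean log2 CPM per mouse was 4.96 for Cxcl9, 4.13 for Cxcr6 and 4.10 for Cxcr3. This comparison of the 6 older with the 6 younger mice was added after the single ages had been examined. Leaving out any 1 of the 12 mice kept all 6 calls, with adjusted p-values of at most 0.0458. Every older mouse was above every younger mouse for 4 of 6 members, namely Cxcl9, Cxcr3, Cxcl16 and Cxcr6, a pattern that 19.7% of tested genes showed.

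Some mice stood apart from the others of their age, and did so for all 6 members. Mouse 1 at 4 weeks and mouse 3 at 6 weeks were high, and mouse 1 at 8 weeks was low. For Cxcl9 on the log2 scale, low mice of the 2 youngest ages lay farther out. Mouse 3 at 4 weeks stood at -0.475 against 6.27 and 4.18 log2 CPM, and mouse 1 at 6 weeks at -1.24 against 3.70 and 5.93. The 10 T cell markers summed to 40.1 CPM in mouse 1 at 4 weeks against 6.84 and 3.15 CPM in the other mice of that age. They summed to 41.7 CPM in mouse 3 at 6 weeks against 3.65 and 13.9 CPM. At 8 weeks they summed to 10.5 CPM in mouse 1 against 147 and 210 CPM in mice 2 and 3. In whole islets, a change in the number of cells of a type and a change in RNA per cell cannot be told apart. Nothing but age was given as shared by the 3 mice of a group, and p-values measure the spread between these mice.

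**Figure D1:**
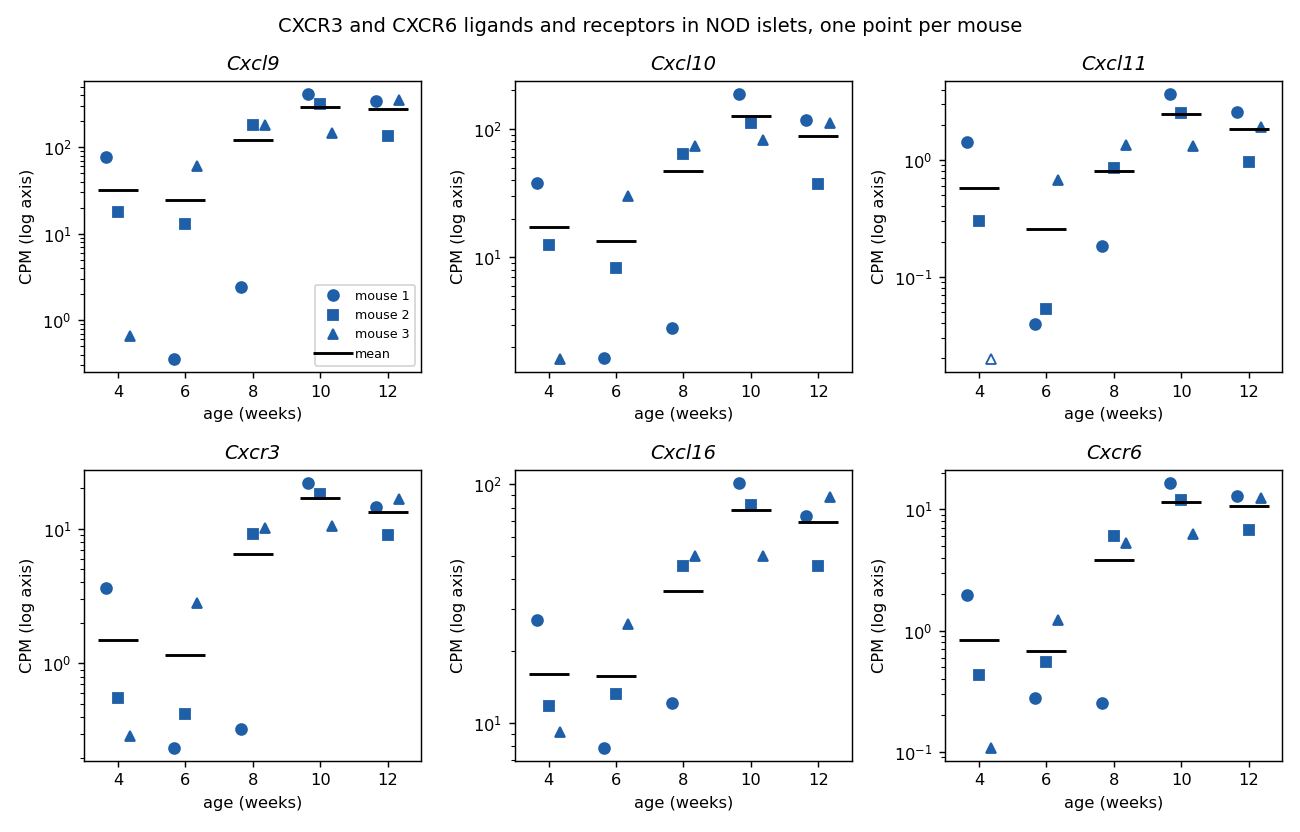
CPM (log axis) of each member against age in weeks, with 1 point per mouse and a bar at the mean of 3 mice; the open symbol for Cxcl11 at 4 weeks is a mouse with 0 counts, drawn at the foot of the panel. In every panel mouse 1 at 4 weeks and mouse 3 at 6 weeks lie above the others of their age, and mouse 1 at 8 weeks lies below.

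The CXCR3 ligands lie side by side on chromosome 5, all on the minus strand, within 44.1 kb (chr5:92321347-92365485, GRCm38). Cxcl9 (ENSMUSG00000029417) spans chr5:92321347-92328079, Cxcl10 (ENSMUSG00000034855) chr5:92346638-92348889 and Cxcl11 (ENSMUSG00000060183) chr5:92359544-92365485. GENCODE marks Cxcl9 and Cxcl10 as protein coding and Cxcl11 as a polymorphic pseudogene, a class for genes that are disrupted in the reference strain and intact in others. RefSeq promoter windows of 300 bases (GRCm38.p6, from 250 bases before the annotated start to 50 after it) were matched for 4 of the 6 members. The windows of Cxcl9 and Cxcl10 are shown because interferon gamma and NF-kB act on these genes and both signals are followed further on. Capitals mark matches to the interferon-stimulated response element core GAAANNGAA and to the NF-kB consensus, searched on both strands, written 5′ to 3′ on the strand of the gene (chr5:92328030-92328329 and chr5:92348840-92349139, both minus).
Cxcl9: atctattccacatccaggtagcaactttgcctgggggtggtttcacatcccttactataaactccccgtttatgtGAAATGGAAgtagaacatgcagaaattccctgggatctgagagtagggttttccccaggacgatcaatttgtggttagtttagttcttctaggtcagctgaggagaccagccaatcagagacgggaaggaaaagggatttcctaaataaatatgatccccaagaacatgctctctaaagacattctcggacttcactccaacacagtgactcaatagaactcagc
Cxcl10: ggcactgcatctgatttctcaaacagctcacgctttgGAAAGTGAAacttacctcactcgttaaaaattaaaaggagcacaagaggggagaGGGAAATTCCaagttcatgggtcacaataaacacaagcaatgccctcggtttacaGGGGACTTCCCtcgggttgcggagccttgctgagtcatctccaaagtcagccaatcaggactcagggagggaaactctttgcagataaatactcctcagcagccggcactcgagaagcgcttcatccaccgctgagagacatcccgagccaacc
The response element core was found once in each window, 175 to 167 bases before the start of Cxcl9 and 213 to 205 bases before that of Cxcl10. It occurs in 8.56% of the 32851 windows of all genes. The NF-kB consensus was found in the Cxcl10 window at 159 to 150 bases before the start and again at 104 to 95 and at 103 to 94 bases, the last 2 matches overlapping each other. Of all windows, 8.46% hold it. The gamma-activated site TTCNNNGAA, present in 8.3% of windows, was in neither, and the windows of Cxcr3 and Cxcr6 held none of the 3 motifs. A match is a description of letters and was not tested as a binding site.

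Cxcl9 had the highest mean TPM of the members at 10 and at 12 weeks, although Cxcl10 was higher in mouse 3 at 10 weeks (122 against 116 TPM). In the 3 mice at 4 weeks it stood at 77.0, 18.0 and 0.651 CPM, at 6 weeks at 0.357, 12.9 and 60.7 CPM, and at 8 weeks at 2.44, 181 and 179 CPM. At 10 weeks it reached 409, 318 and 145 CPM and at 12 weeks 345, 134 and 347 CPM. All mice of 10 and 12 weeks were thus above all mice of 4 and 6 weeks, and the younger mice spanned 0.357 to 77.0 CPM. At 12 against 4 weeks the log2 fold change was 3.11 ± 1.54 (SE), and with an adjusted p of 0.104 in the edgeR fit it did not pass the test, although the groups did not overlap. With 1 mouse left out it ran from 2.53 without mouse 3 at 4 weeks to 4.90 without the high mouse 1 of that age, with adjusted p-values from 0.0538 to 0.229 and no call.

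Cxcl10, encoding IP-10, a ligand that many cell types make soon after interferon exposure, followed the same mice. It stood at 37.7, 12.4 and 1.63 CPM at 4 weeks, at 1.66, 8.23 and 30.2 CPM at 6 weeks and at 2.81, 63.3 and 73.6 CPM at 8 weeks. Its values were 185, 112 and 81.9 CPM at 10 weeks and 117, 37.0 and 110 CPM at 12 weeks. Mouse 2 at 12 weeks lay just under mouse 1 at 4 weeks, so those groups overlapped, while all mice at 10 weeks were above all mice at 8 weeks and at 4 weeks. The log2 fold change at 10 against 4 weeks was 2.87 ± 1.17 with an adjusted p of 0.0642, and at 12 against 4 weeks it was 2.35 ± 1.15 with an adjusted p of 0.102, neither passing in the edgeR fit. DESeq2 and the edgeR exact test called the change at 10 weeks, and so did 1 of 6 fits with 1 mouse left out, the one without the high mouse at 4 weeks (adjusted p = 0.0370). The other fits had adjusted p-values of up to 0.163.

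Cxcl11 was scarce throughout. Its counts were 38, 7 and 0 in the mice at 4 weeks, 1, 2 and 17 at 6 weeks and 5, 24 and 38 at 8 weeks. They were 101, 100 and 40 at 10 weeks and 80, 29 and 61 at 12 weeks. The mouse with 0 counts may hold up to 3 counts, or 0.109 CPM, and 3 of the 6 youngest mice were at or under that floor. Mean levels were 0.574 ± 0.750 CPM (SD, n = 3) at 4 weeks and 1.83 ± 0.816 CPM at 12 weeks, and the groups overlapped. The log2 fold change at 12 against 4 weeks was 1.66 ± 1.04 with an adjusted p of 0.194 in the edgeR fit, and it was called in 1 of 6 fits with 1 mouse left out. Those fits ran from 1.07 without mouse 3 at 4 weeks (adjusted p = 0.401) to 3.65 without the high mouse 1 of that age (adjusted p = 0.0366).

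Cxcr3 (ENSMUSG00000050232, chrX:101731535-101734269, minus strand, protein coding) rose with its ligands. Its levels were 3.63, 0.556 and 0.289 CPM at 4 weeks, 0.238, 0.421 and 2.80 CPM at 6 weeks and 0.328, 9.06 and 10.1 CPM at 8 weeks. They were 21.8, 18.1 and 10.4 CPM at 10 weeks and 14.4, 8.99 and 16.5 CPM at 12 weeks. Mice of 10 and 12 weeks were all above those of 4 and 6 weeks, and those of 10 weeks were also all above those of 8 weeks, though mouse 3 at 10 weeks was above mouse 3 at 8 weeks by only a small margin. The log2 fold change was 3.48 ± 1.10 at 10 against 4 weeks (adjusted p = 0.0222) and 3.14 ± 1.09 at 12 against 4 weeks (adjusted p = 0.0274), both called in the edgeR fit. Leaving out mouse 2 or 3 at 4 weeks, or mouse 1 or 3 at 12 weeks, took the latter past the threshold, with adjusted p-values between 0.0517 and 0.0939. The call at 10 weeks was lost in the same way without mouse 2 or 3 at 4 weeks or mouse 1 or 2 at 10 weeks, with adjusted p-values between 0.0529 and 0.0823. Adding the replicate number to the model as a block also ended the call at 12 weeks (adjusted p = 0.0533 in the edgeR fit).

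Cxcl16 (ENSMUSG00000018920, chr11:70453983-70459984, minus strand, protein coding) was the ligand with the steadiest level before the rise. It stood at 27.0, 11.8 and 9.12 CPM at 4 weeks, 7.88, 13.3 and 26.0 CPM at 6 weeks and 12.1, 45.3 and 50.2 CPM at 8 weeks. The levels were 101, 81.9 and 50.02 CPM at 10 weeks and 73.8, 45.6 and 88.5 CPM at 12 weeks. No mouse of 10 or 12 weeks fell within the range of the 6 youngest mice, which differed among themselves by much less than for Cxcl9. The log2 fold change was 2.28 ± 0.58 at 10 against 4 weeks (adjusted p = 0.00792) and 2.12 ± 0.58 at 12 against 4 weeks (adjusted p = 0.00849), and both calls held in 8 other settings, the edgeR exact test and DESeq2 among them, and in each of 6 fits with 1 mouse left out.

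Cxcr6 (ENSMUSG00000048521, chr9:123806477-123811754, plus strand, protein coding) was low in young mice, with 3 to 53 counts at 4 and 6 weeks. Its levels were 1.98, 0.428 and 0.109 CPM at 4 weeks, 0.277, 0.552 and 1.22 CPM at 6 weeks and 0.255, 6.06 and 5.25 CPM at 8 weeks. They were 16.5, 11.8 and 6.31 CPM at 10 weeks and 12.997, 6.79 and 12.5 CPM at 12 weeks. All mice at 10 weeks lay above all mice at 8 weeks, and all mice at 10 and 12 weeks lay above the 6 youngest mice. The log2 fold change was 3.77 ± 0.98 at 10 against 4 weeks (adjusted p = 0.00877) and 3.67 ± 0.98 at 12 against 4 weeks (adjusted p = 0.00738) in the edgeR fit, and both calls held in the same 8 settings and 6 fits with 1 mouse left out.

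Counted over the members, 3 of 6 were called higher at 12 against 4 weeks (Cxcr3, Cxcl16 and Cxcr6), beside 26.3% of all tested genes. The same 3 were called higher at 10 against 4 weeks, beside 22.5%, and these comparisons share the 4-week mice. In groups that did not overlap, 4 of 6 members were higher at 12 against 4 weeks, where 30.3% of genes were, and 5 of 6 at 10 against 4 weeks, where 26.1% of genes were. The joint test for any change over the 5 ages called the same 3, with adjusted p-values of 0.0233 for Cxcr3, 0.00765 for Cxcl16 and 0.00629 for Cxcr6, where 56% of genes were called. The joint call of Cxcr3 held in 11 of 15 fits with 1 mouse left out and was lost without mouse 2 at 4 weeks, mouse 2 at 6 weeks, or mouse 1 or 2 at 10 weeks, with adjusted p-values of up to 0.0546 in the edgeR fit. Without mouse 1 at 4 weeks, 5 of 6 members were called at 12 against 4 weeks, all but Cxcl9, where 24.6% of genes were called higher in that fit. Across single mice left out, the count ran from 2 to 5 and the share of all genes called higher from 21.5% to 24.9%.

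**Figure D2:**
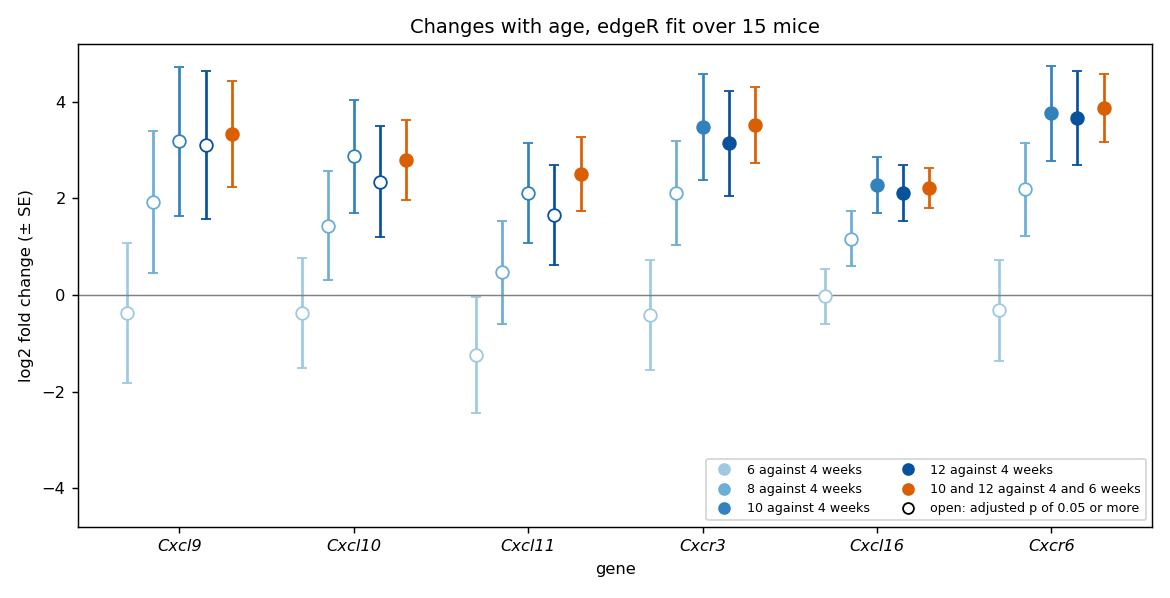
Log2 fold change with its standard error for each member (edgeR fit over 15 mice), by comparison; filled points have an adjusted p under 0.05. Points for 8 weeks lie between those for 6 and 10 weeks for every member, and among the comparisons drawn only the comparison of 10 and 12 with 4 and 6 weeks has all 6 points filled.

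The timing of ligands against receptors was read first from the steps between neighbouring ages. Between 4 and 6 weeks no member was called, and 0.00604% of genes were called higher. Between 6 and 8 weeks no member was called either, while no gene (0%) was called higher in the edgeR fit, although 2983 of 16554 genes had an unadjusted p under 0.05, DESeq2 called 558 genes and the edgeR exact test 301. Both receptors were among the genes with an unadjusted p under 0.05, and neither DESeq2 nor the exact test called a member. Their log2 fold changes were 2.50 ± 0.98 for Cxcr6 and 2.53 ± 1.10 for Cxcr3, with adjusted p-values of 0.221 and 0.257 in the edgeR fit. The ligands had log2 fold changes of 2.30 ± 1.495 for Cxcl9, 1.81 ± 1.14 for Cxcl10, 1.72 ± 1.17 for Cxcl11 and 1.19 ± 0.57 for Cxcl16 between 6 and 8 weeks, with adjusted p-values of 0.288 to 0.449. Without mouse 1 at 8 weeks, Cxcr6 alone was called at this step, at a log2 fold change of 3.06 and an adjusted p of 0.0469, where 4.29% of genes were called higher in that fit. The same gene alone was called at 8 against 4 weeks without that mouse, with an adjusted p of 0.0393, where 8.15% of genes were. With all mice no member was called at 8 against 4 weeks, where 1.86% of genes were called higher.

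Between 8 and 10 weeks no member was called, beside 8.4% of genes called higher. That share was 0% without mouse 1 or 2 at 8 weeks or without mouse 1 or 2 at 10 weeks, and 16% without mouse 3 at 10 weeks. The log2 fold changes at this step ran from 1.12 ± 0.56 for Cxcl16 to 1.64 ± 1.004 for Cxcl11. Groups without overlap were found for 3 of 6 members, Cxcl10, Cxcr3 and Cxcr6, where 17.2% of genes showed this pattern. Between 10 and 12 weeks no member was called and no gene (0%) was called higher in the edgeR fit, where 1245 genes had an unadjusted p under 0.05 and DESeq2 called 12. Mean CPM had the same order of ages for all 6 members, highest at 10 weeks and then 12, 8, 4 and 6 weeks. Of the neighbours in that order, 10 with 12, 8 with 4 and 4 with 6 weeks were tested and did not pass, and 12 with 8 weeks was not tested.

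On the log2 scale, the mean at 8 weeks had covered between 43.7% (Cxcl11) and 48.5% (Cxcl16) of the distance from the mean at 4 weeks to that at 12 weeks. The shares were 45.4% for Cxcl9, 44.1% for Cxcl10, 48.2% for Cxcr3 and 46.6% for Cxcr6. These shares rested on single mice of 4 and 8 weeks. Without mouse 1 at 8 weeks the share was 89.6% for Cxcl9, 93.7% for Cxcl10, 74.2% for Cxcl11, 88.7% for Cxcr3, 78.2% for Cxcl16 and 79.4% for Cxcr6. Without mouse 3 at 4 weeks it was 7.86% for Cxcl9, 7.11% for Cxcl10 and -7.89% for Cxcl11, against 36.6% for Cxcr3, 39.9% for Cxcl16 and 33.3% for Cxcr6. At 10 weeks the shares were 101% to 120%. An order in time between ligands and receptors was not detectable with these mice.

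Ratios within each mouse compare a ligand directly with its receptor. They are differences of log2 CPM, tested by exact permutation over mice, two-sided, with p-values adjusted over 11 ratios in 3 comparisons (33 tests). Cxcl16 fell relative to Cxcr6. The log2 ratio was 3.72, 4.58 and 5.70 in the mice at 4 weeks, 4.52, 4.43 and 4.34 at 6 weeks and 5.23, 2.89 and 3.24 at 8 weeks. It was 2.61, 2.78 and 2.97 at 10 weeks and 2.50, 2.74 and 2.82 at 12 weeks. The 6 older mice lay within a narrow band below all 6 younger mice, and the low mouse 1 at 8 weeks sat with the young mice. The mean ratio went from 4.55 ± 0.64 (SD, n = 6) to 2.74 ± 0.16, a difference of -1.81 (exact permutation p = 0.00216, the smallest this design can give, and 0.0238 adjusted). In TPM, Cxcl16 was 8.54 to 52.6 times the level of Cxcr6 in mice of 4 and 6 weeks and 3.56 to 4.96 times in mice of 10 and 12 weeks. The highest of these ratios, in mouse 3 at 4 weeks, rests on 3 counts of Cxcr6. With a prior count of 0.5 in place of 2 the groups differed by -1.98 without overlap, with an exact permutation p of 0.00216 and 0.0714 adjusted over the 33 tests.

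The CXCR3 ligands did not move apart from the receptor in a uniform way. Between the younger and older mice, the log2 ratio of Cxcl9 to Cxcr3 differed by 0.86 (exact adjusted p = 0.556) and that of Cxcl10 to Cxcr3 by -0.58 (exact adjusted p = 0.412). The ratio of Cxcl9 to Cxcr3 was 3.31 ± 2.01 (SD, n = 6) in younger and 4.17 ± 0.30 in older mice, and the lowest of the former were mouse 3 at 4 weeks and mouse 1 at 6 weeks, with 18 and 9 counts of Cxcl9. The ratio of Cxcl11 to Cxcr3 was lower in older mice by -1.16 (exact adjusted p = 0.0238), with no overlap, but with a prior count of 0.5 the groups overlapped, the difference was -0.65 and the exact adjusted p 0.434. Of the 22 tests that compared 8 weeks with younger or older mice, none had an adjusted p under 0.05. In their design of 3 against 6 mice the smallest exact p is 0.0119 before adjustment. With the other p-values as they were, a lone ratio at that value would not have passed after adjustment. These tests therefore could not decide whether a ratio at 8 weeks differed from that in younger or older mice.

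**Figure D3:**
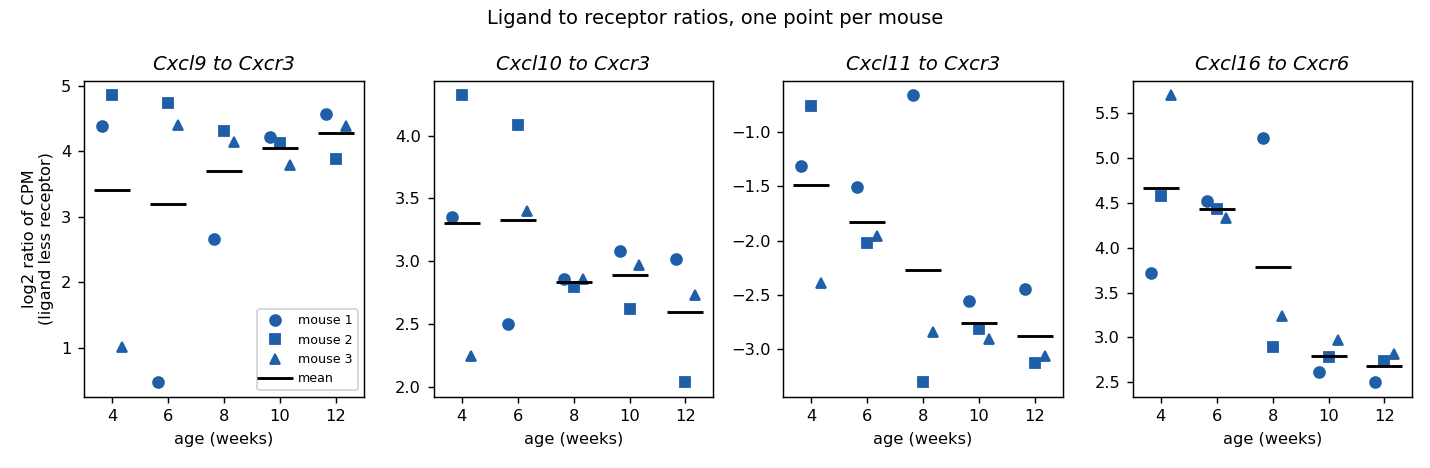
Log2 ratio of CPM of each ligand to its receptor in each mouse against age in weeks, with bars at the mean of 3 mice. For Cxcl16 to Cxcr6 the mice of 10 and 12 weeks lie between 2.50 and 2.97, below all mice of 4 and 6 weeks.

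The CXCR3 ligands Cxcl9 and Cxcl10 were compared within each mouse. In TPM, Cxcl9 was 1.09, 0.774 and 0.213 times the level of Cxcl10 at 4 weeks and 0.114, 0.838 and 1.07 times at 6 weeks. At 8 weeks it was 0.464, 1.52 and 1.30 times. It was 1.18, 1.52 and 0.945 times at 10 weeks and 1.57, 1.93 and 1.68 times at 12 weeks. Cxcl9 was thus above Cxcl10 in each mouse at 12 weeks and in 2 of the 6 youngest mice. The log2 ratio in CPM differed by 1.43 between the 6 older and 6 younger mice, which overlapped, and did not pass after adjustment (exact permutation p = 0.00866, 0.0571 adjusted).

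Levels in TPM placed the members in order at 12 weeks. Cxcl9 stood at 231 ± 108 TPM (SD, n = 3), Cxcl10 at 139 ± 71.5, Cxcl16 at 58.2 ± 21.1, Cxcr3 at 19.5 ± 6.53, Cxcr6 at 14.4 ± 4.88 and Cxcl11 at 1.21 ± 0.526. Neighbours in that order overlapped between mice except for Cxcl16 with Cxcr3 and Cxcr6 with Cxcl11, but within each mouse at 12 weeks the order was the same. At 4 weeks the order was Cxcl10 (21.1 ± 23.3 TPM), Cxcl9 (20.9 ± 26.8), Cxcl16 (10.3 ± 6.64), Cxcr3 (1.71 ± 2.17), Cxcr6 (0.876 ± 1.07) and Cxcl11 (0.299 ± 0.398), and each neighbouring pair there overlapped between mice with the exception of Cxcl16 and Cxcr3. Single mice departed from this order, as mouse 1 at 4 weeks had Cxcl9 above Cxcl10 and mouse 3 had Cxcl16 above both.

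Within ages, the members went up and down together from mouse to mouse. After the mean of each age was subtracted, log2 CPM of Cxcl10 and Cxcr3 correlated over the 15 mice with Pearson's r of 0.943 (permutation p = 0.000257) and Spearman's rho of 0.936 (permutation p = 0.000386), and r was 0.916 without the 2 mice farthest from the median. Cxcl16 and Cxcr6 gave an r of 0.954 (permutation p = 0.000514) and a rho of 0.979 (permutation p = 0.000514), with r at 0.938 without the 2 farthest. Cxcl10 and Ifng, the gene of interferon gamma, gave an r of 0.968 (permutation p = 0.000386) and a rho of 0.982 (permutation p = 0.000386), with r at 0.951 without the 2 farthest. These relations were added after the levels had been examined. Labels were permuted within ages, 8 relations were computed, and the adjusted permutation p was 0.000514 for each. Over the 8 relations r ran from 0.886 for Cxcl11 and Cxcr3 to 0.983 for Cxcl9 and Cxcl10. Genes outside the set went along as closely, such as Myo1f with Cxcr6 (r = 0.988 after age means), so this was not particular to the members. The points of a mouse share a library and the same mixture of cells.

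The genes whose log2 CPM followed each member most closely over the 15 mice were found by Pearson's r, given as a description with no test. For Cxcl10 they were Gbp6, Tgtp1, Tgtp2, Iigp1 and Gbp4, all GTPase genes induced by interferon, with r from 0.991 to 0.996. For Cxcl9 they were Il2rb, a subunit of the interleukin-2 receptor, with r of 0.990, 9330175E14Rik, Gbp6, Tgtp1 and F830016B08Rik. For Cxcl11 they were Chil1, Fpr2, Ifng, Gbp2 and Il18bp, with r from 0.962 to 0.988. For Cxcr3 they included Slamf8, the inhibitory receptor gene Tigit, Gm15056 and Gbp7, with r from 0.991 to 0.995. For Cxcl16 they included AW112010, H2-T-ps and Gbp7, with r from 0.994 to 0.995. For Cxcr6 they included the class I genes B2m and H2-K1, Gna15 and Myo1f, with r from 0.994 to 0.995.

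Genes of the interferon and NF-kB signals were compared at 12 against 4 weeks, and whether these signals induced the members here was not tested. All 10 genes of the interferon gamma signal were called higher at 12 against 4 weeks, where 26.3% of all genes were. Their median log2 fold change was 1.55, where the median of all genes was -0.05. Ifng itself went from 0.344 ± 0.456 CPM (SD, n = 3) at 4 weeks to 3.83 ± 1.83 CPM at 12 weeks, and its rise of 3.45 ± 1.21 on the log2 scale passed the edgeR test (adjusted p = 0.0290). Irf1, a transcription factor gene induced by interferon gamma, rose by 1.53 ± 0.42 (adjusted p = 0.00904). Of 15 interferon gamma targets 14 were called higher, with a median of 2.60. The exception was Iigp1, the most abundant of the targets, at 54.4 ± 54.6 and 286 ± 143 CPM, with an adjusted p of 0.124. All 12 type I interferon targets and all 7 genes of the NF-kB signal were called higher, with medians of 1.98 and 0.80, and Tnf, the gene of tumor necrosis factor, rose by 2.61 ± 0.88 (adjusted p = 0.0244).

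Genes that act on the ligands after they are made were mixed. Adam10, whose protease releases CXCL16, rose by 0.37 ± 0.09 on the log2 scale (adjusted p = 0.00490), and Adam17, a related protease gene, by 0.88 ± 0.20 (adjusted p = 0.00282), both at 12 against 4 weeks in the edgeR fit. Mme, encoding neprilysin, rose by 2.15 ± 0.56 (adjusted p = 0.00643). Dpp4, whose peptidase trims CXCL9, CXCL10 and CXCL11 at their amino end, stood at 84.9 ± 2.55 CPM at 4 weeks and 75.6 ± 4.597 CPM at 12 weeks, a log2 change of -0.17 ± 0.07 (adjusted p = 0.0619). Among these 4 genes, 3 were called higher and none lower, beside 26.3% of all genes called higher.

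Other chemokine genes of the CXC, CX3C and XC families were compared at 12 against 4 weeks. Of 20 genes, 16 passed the filter and 12 of the 16 were called higher, none lower, where 26.3% of all genes were called higher. Their median log2 fold change was 2.63, where the median of all genes was -0.05. The B cell chemokine Cxcl13 went from 0.689 ± 0.864 to 80.8 ± 17.6 CPM, a rise of 6.84 ± 0.75 on the log2 scale (adjusted p = 0.000154). Its receptor Cxcr5 went from 0.299 ± 0.487 to 24.6 ± 5.42 CPM, a rise of 6.31 ± 1.002 (adjusted p = 0.000459). Cxcl12, the most abundant of the list, rose by 1.33 ± 0.23 (adjusted p = 0.000723) and its receptor Cxcr4 by 3.38 ± 0.42 (adjusted p = 0.000205). Cx3cl1, at 21.2 ± 3.46 and 22.8 ± 1.10 CPM, and Ackr3, at 5.30 ± 1.88 and 6.28 ± 2.01 CPM, did not pass the test. Both of the CXCR3 ligands that were abundant, Cxcl9 and Cxcl10, had larger standard errors than the genes named here.

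Markers of the cells that carry the receptors moved with the members. All 10 T cell genes were called higher at 12 against 4 weeks, where 26.3% of all genes were, with a median log2 fold change of 4.76. They summed to between 3.15 and 41.7 CPM in mice of 4 and 6 weeks and between 223 and 531 CPM in mice of 10 and 12 weeks. Cd3e rose by 4.76 ± 1.24 (adjusted p = 0.00648) and Cd8a by 5.14 ± 1.24 (adjusted p = 0.00422) in the edgeR fit. Lck or Cd4 was the most abundant of the list in each mouse, and none of the 10 genes was at 0 except for 2 genes in mouse 3 at 4 weeks. Of the type 1 effector genes, 8 of 10 were called higher, among them Tbx21, encoding the factor T-bet that drives Cxcr3, at 4.36 ± 1.19 (adjusted p = 0.00842). All 5 NK cell genes were called higher, with a median of 3.65.

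Relative to the T cell genes, Cxcr6 was lower in older mice. The log2 ratio of Cxcr6 to the mean of the T cell list was -0.57 ± 0.65 (SD, n = 6) in younger and -1.80 ± 0.31 in older mice, with no overlap, a difference of -1.24 (exact permutation p = 0.00216, 0.0238 adjusted). For Cxcr3 the difference was -1.26, the groups overlapped and the test did not pass (exact permutation p = 0.00866, 0.0571 adjusted). With a prior count of 0.5 the difference for Cxcr6 was -1.32 and the groups overlapped, with an exact adjusted p of 0.0714.

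Macrophage genes rose as a group too: 10 of 10 were called higher at 12 against 4 weeks, where 26.3% of all genes were, with a median of 2.53. Lyz2, the most abundant in all mice of 8 to 12 weeks, went from 39.8 ± 40.2 to 812 ± 7.70 CPM. Cxcl16 stayed close to this list. Its log2 ratio to the mean of the macrophage genes was 0.60 ± 0.24 (SD, n = 6) in younger and 0.39 ± 0.23 in older mice, a difference of -0.21 (exact adjusted p = 0.412). Cxcl9 did not stay close to it in the younger mice, where the ratio was -0.17 ± 2.64, against 2.26 ± 0.39 in older mice. That difference of 2.43 had an exact permutation p of 0.0195 and did not pass after adjustment (0.107). For Cxcl10 and Cxcl11 the differences were 1.0004 and 0.42 (exact adjusted p of 0.412 and 0.556), and that for Cxcl11 was -0.25 in TPM.

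**Figure D4:**
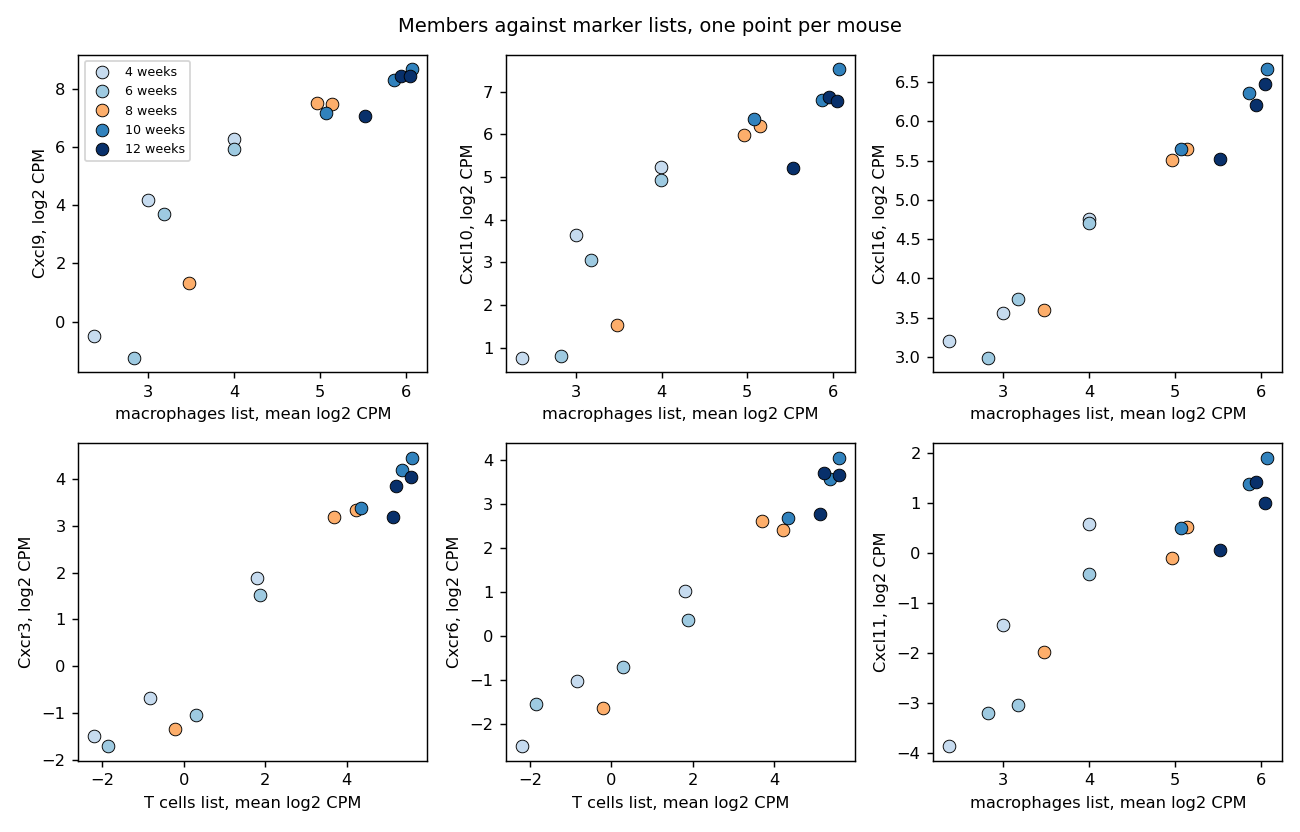
Log2 CPM of each member in each mouse against the mean log2 CPM of the macrophage list (ligands) or the T cell list (receptors), colored by age. Cxcl16 rises in step with the macrophage list, and mouse 1 at 8 weeks lies among the mice of 4 and 6 weeks in every panel.

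Other cells in the samples also changed, and their part in the results was not tested. At 12 against 4 weeks 6 of 6 B cell genes (median 8.25) and 8 of 8 dendritic cell genes (median 3.25) were called higher. So were 6 of 6 mesenchymal genes (median 1.94) and 4 of 8 endothelial genes (median 0.23), where 26.3% of all genes were. Of the endocrine genes, 10 of 12 were called lower (median -0.87), where 27.2% of all genes were. Ins1 fell by 0.90 ± 0.17 on the log2 scale (adjusted p = 0.000935). All 7 genes of lymph node stroma and high endothelium were called higher, their sum running from 3.40 to 12.6 CPM in mice of 4 and 6 weeks and from 301 to 523 CPM at 12 weeks, with Glycam1, a gene of high endothelial venules, as the most abundant at 12 weeks. The acinar genes (0 of 10 called, median 0.85) summed to between 1459 and 17111 CPM. Of 8 intestinal genes 2 were tested and 1 was called higher. The list summed to 455 CPM in mouse 1 at 12 weeks against 33.4 to 129 CPM in the other mice. Cxcl9 was at 345 CPM in that mouse, and at 134 and 347 CPM in mice 2 and 3 of the same age.

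Overlapping genes could add reads to the members, since strand was not stated for the counting. Art3 lies across Cxcl10 and Cxcl11 on the other strand and shares 133 exon bases with Cxcl10 and none with Cxcl11. Gm2673, a processed pseudogene on the other strand, shares 1582 of the 3794 exon bases of Cxcl11 and had 0 counts. The mean of Art3 was 4.52 ± 0.633 CPM at 4 weeks and 7.90 ± 1.24 CPM at 12 weeks (SD, n = 3). Zmynd15 shares 552 of 3021 exon bases with Cxcl16 and went from 3.11 ± 1.61 to 12.6 ± 4.38 CPM. Fyco1 spans Cxcr6 without a shared exon base and stood at 57.6 ± 3.87 and 64.0 ± 4.08 CPM. What these genes add to the counts of the members was not tested.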

How the data were processed

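Polyadenylated RNA of 15 islet samples was sequenced in paired ends on a NovaSeq instrument. Reads were trimmed, aligned and quantified by the authors in CLC Genomics Workbench with default settings, and the submitters' processing notes name the mm10 build. The deposited table gives raw counts per gene, used for all tests, and TPM as computed by the authors, used for levels between genes. Use of strand in counting is not given in the sources used here. A further 30 columns of per-sample values (RPKM and CPM) were not used. Gene starts and ends matched the GENCODE annotation of GRCm38 for 42754 of 48709 rows (87.8%).

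Genes were kept by filterByExpr over the 5 ages and scaled by TMM, and 1 model of all 15 mice was fitted with the quasi-likelihood test of edgeR 4.0.16 (R 4.3.3), with Benjamini-Hochberg adjustment over 16554 genes and a threshold of 0.05. A call means an adjusted p under that threshold. Standard errors come from that fit. Log2 CPM used a prior count of 2. Ratios were tested by exact permutation over mice. The scripts were tested on simulated data. Named were the members, 5 genes of most similar pattern for each, 16 genes listed by name, and from each of 18 lists the 2 genes with the highest and the 2 with the lowest change at 12 against 4 weeks and the most abundant one, of which the text gives a part and some genes are not reported here. The members and lists were chosen with earlier results of these data known. Alternatives were DESeq2 1.42.0, an edgeR exact test (the kind of test the study used), other scalings, no filter, ages fitted in pairs, a replicate block, a threshold on fold and unadjusted p, another prior count, TPM, and each mouse left out. Figures were drawn with matplotlib 3.10.9.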

Additional observations from a re-analysis of the deposited data

How the results depend on the processing

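Most results kept their direction and side of the threshold. Of recomputed counts of members called, 131 were within 1.5 times the value reported and 6 were not. By that measure a fall from 3 members called to 2 counted as the same, as at 12 against 4 weeks without mouse 2 at 4 weeks. Counts that stayed at 0 were also among the 131. Counts over all genes moved more often, with 98 the same by that measure and 39 not. Of the recomputed member fold changes, 431 kept their side of the threshold while 10 gained and 9 lost a call. With 1 mouse left out, members called ran from 2 to 5 at 10 against 4 weeks and at 12 against 4 weeks, and from 0 to 1 at 8 against 6 and at 8 against 4 weeks. The share of all genes called higher in those fits ran from 16.9% to 24.5% at 10 against 4 weeks and from 21.5% to 24.9% at 12 against 4 weeks. It ran from 0% to 4.29% at 8 against 6 weeks and from 0.0771% to 8.15% at 8 against 4 weeks. A rule of 1.5-fold with unadjusted p called 2 members higher at 8 against 6 weeks and 1 at 8 against 4 weeks, where 8.4% and 9.66% of all genes were. DESeq2 and the exact test each called 4 members at 10 against 4 weeks, where 24.9% and 21.8% of all genes were called higher. Scaling by library totals moved the median log2 change of all genes at 12 against 4 weeks from -0.05 to 0.20, with no change in the members' direction, and the calls over all genes from 4357 higher and 4501 lower to 6556 and 1820.

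With a replicate block, 2 members were called at 12 against 4 weeks, where 24.8% of all genes were called higher. Cxcr3 fell out there, with an adjusted p of 0.0533 in the edgeR fit. At 10 against 8 weeks no gene was called in place of 2776, as also with those 2 ages fitted alone. The block changed no other call of a member. Deviations of mice of the same number from their age means correlated with r from -0.64 to 0.51 (median -0.09, over 0.1 in 7 of 30 pairs of samples). The labels give only the number, and whether such mice shared anything more was not tested.

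Among log2 ratios at 10 and 12 against 4 and 6 weeks, a prior count of 0.5 gave -0.65 for Cxcl11 to Cxcr3, -1.98 for Cxcl16 to Cxcr6 and -1.32 for Cxcr6 to T cells, each no longer under the threshold after adjustment. For Cxcl16 to Cxcr6 the groups still did not overlap, and an adjusted p also depends on the p-values of the other tests. The deposited TPM turned Cxcl11 to macrophages to -0.25. With 1 mouse left out, Cxcl9 to Cxcl10 ran from 1.03 to 1.64, Cxcr3 to T cells from -1.51 to -1.10 and Cxcl9 to macrophages from 1.65 to 2.92. Some small differences changed sign: Cxcl9 to Cxcr3 ran from -0.17 to 0.92 at 8 against 4 and 6 weeks and from -0.057 to 0.77 at 10 and 12 against 8 weeks, where Cxcl10 to Cxcr3 ran from -0.16 to 0.047 and Cxcl11 to Cxcr3 from -1.07 to 0.25. The cause was not tested. The exact test gave no value for the comparison of pooled ages or the joint test. Low counts limit the values of the youngest mice, with 0 to 38 counts of Cxcl11 and 3 to 53 counts of Cxcr6 at 4 and 6 weeks. Mouse 1 at 8 weeks had as few, with 5 counts of Cxcl11 and 7 of Cxcr6.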
